A study of Homo sapiens with 19 samples.

Results

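The AP-1 transcription factor family was followed in SH-SY5Y cells, a human neuroblastoma line, as 8 genes chosen by name: FOS, FOSB, FOSL1 and FOSL2 (the FOS proteins), JUN, JUNB and JUND (the JUN proteins) and ATF3, a related bZIP protein. These 8 were among the 19942 protein-coding gene rows of the TPM and eCLIP tables, and their 46 transcripts were among the 256980 of the rRNA-depleted table. The genes were listed with results of these libraries already known, so their RNA-seq differences are a description with no test.

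The libraries came from untreated cells and from cells given sodium arsenite (AS), 500 µM for 1 h in the study's methods. Total RNA of untreated and of AS-treated cells was sequenced after rRNA depletion, as 1 library each. Poly-A libraries, so described in the sample labels, were made, 1 each, from cells with a control siRNA (siCtrl), a siRNA to G3BP1 (siG3BP1) or a siRNA to G3BP2 (siG3BP2), all without AS by their titles, and from the cleared lysate (Total) and the stress granule cores (SG) of AS-treated cells, the cores being pulled down with an antibody to G3BP1. G3BP1 and G3BP2 eCLIP, in which RNA crosslinked to a protein by UV light is precipitated with it, gave 2 libraries each from untreated and AS-treated cells. The sample labels name 50 mM AS on the siRNA, Total, SG and eCLIP samples alike, untreated ones included, so treatment was taken from the titles. No label or method says that the 2 eCLIP libraries of a group came from separate cultures, so their spread may be technical.

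AP-1 is a dimer. JUN proteins pair with each other, with FOS proteins or with ATF proteins through a leucine zipper, and the pair binds the sites TGACTCA or TGACGTCA in promoters and enhancers, whereas FOS proteins need a JUN partner. FOS, FOSB, JUN, JUNB and ATF3 are immediate-early genes, transcribed within minutes of growth factors, neuronal activity or stress from signals that pass through the ERK, JNK and p38 kinases, and their mRNAs are short-lived, in part through AU-rich elements in the 3′ UTR. JUND and FOSL2 are more constantly expressed in many cells.

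Stretches of promoter are shown for FOS, FOSB and JUN, the members with the 3 largest log2 ratios under AS when transcripts were summed, and for JUND, the most abundant member without AS. The sequences are RefSeq's on GRCh38.p14, 5′ to 3′ in the direction of the gene, and hold the 210 bases before its annotated start. They lie at chr14:75278618-75278827 (+) for FOS, chr19:45467786-45467995 (+) for FOSB, chr1:58784048-58784257 (−) for JUN and chr19:18281623-18281832 (−) for JUND. Capitals mark TGACGT or TGACNTCA on either strand, and TATAAA on the gene's strand.
FOS: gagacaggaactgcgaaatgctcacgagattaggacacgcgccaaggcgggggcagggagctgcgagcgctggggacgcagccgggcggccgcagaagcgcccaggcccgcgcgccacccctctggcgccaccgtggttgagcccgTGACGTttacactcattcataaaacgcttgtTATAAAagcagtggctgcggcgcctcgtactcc
FOSB: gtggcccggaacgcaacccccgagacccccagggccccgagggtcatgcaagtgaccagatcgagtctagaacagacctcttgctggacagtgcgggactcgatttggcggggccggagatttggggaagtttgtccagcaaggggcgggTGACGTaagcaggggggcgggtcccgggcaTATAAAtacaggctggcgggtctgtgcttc
JUN: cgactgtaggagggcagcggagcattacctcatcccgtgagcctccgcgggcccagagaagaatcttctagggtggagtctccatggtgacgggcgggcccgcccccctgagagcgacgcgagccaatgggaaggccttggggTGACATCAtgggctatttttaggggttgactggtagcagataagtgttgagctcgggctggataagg
JUND: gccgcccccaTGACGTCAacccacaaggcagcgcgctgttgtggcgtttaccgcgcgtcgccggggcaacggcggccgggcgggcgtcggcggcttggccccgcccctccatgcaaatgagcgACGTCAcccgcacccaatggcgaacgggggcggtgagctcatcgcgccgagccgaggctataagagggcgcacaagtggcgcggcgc

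The table held 8 promoters of 7 of the genes, 2 of them for ATF3, as windows of 300 bases reaching 50 bases past the start. FOSL1 had no entry. TGACGT was found 64 bases before the start of FOS, 60 before that of FOSB and 66 before that of FOSL2, and in JUND, which made 4 of 8 windows, against 7.98% of all 35116 promoters. TGACNTCA, which overlaps TGACGT where N is G, was in 3 of 8 windows, as TGACATCA 67 bases before the start of JUN and 123 before the upstream start of ATF3, and as TGACGTCA 200 bases before that of JUND, against 7.72% of all promoters. TGACTCA was in 1 of 8 windows, just after the start of FOSL2, against 4.95%. TATAAA was in 4 of 8 windows, against 7.33%. It lay 33 bases before the start of FOS, 30 before that of FOSB and 31 before that of JUNB, but 230 before the downstream start of ATF3. The CArG box, the site of serum response factor, was in 0 of 8 windows and in 1.29% of all. These are matches of letters in a short window that begins 250 bases before the start. Sites further upstream were not searched, so absence from the window does not show that a gene lacks the site.

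The 3′ UTRs of the canonical transcripts, the one per gene that GENCODE marks as representative, held between 1 and 9 copies of ATTTA, the core of AU-rich elements. FOS had 5 copies in 806 nt, or 6.20 per kb, a density above that of 94.6% of 19145 protein-coding 3′ UTRs, whose median was 1.53 per kb. JUNB followed with 4.0 per kb, above 84.4% of them. ATF3 had 2.46, JUN 2.34 and FOSL2 1.85 per kb, while FOSB with 1.38, JUND with 1.34 and FOSL1 with 1.19 per kb lay below the median. The overlapping pair in the FOS 3′ UTR at chr14:75282057-75282086 (+, GRCh38) and the pair in the FOSL2 3′ UTR at chr2:28416348-28416377 (+, GRCh38) are shown because FOS and FOSL2 stood at opposite ends of the family under AS. Capitals mark ATTTA.
FOS site: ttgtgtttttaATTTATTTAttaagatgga
FOSL2 site: aattgacATTTAttttattATTTAttttaa

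In the rRNA-depleted libraries, 7 of the 8 genes were called higher under AS, where 4.08% of all 16457 genes tested were. A gene's value was the sum of its transcripts in RPKM, reads per kb of transcript scaled to the library's total, and a call needed a ratio of value + 1 above 2, or below 0.5, with more than 1 RPKM in the higher library. The median log2 ratio of the 8 genes was 2.44, against 0.25 over all genes tested. FOS had the largest ratio of the family, with 0.768 RPKM in untreated and 236 RPKM in AS-treated cells, 7.07 on this log2 scale. FOSB had 0.646 and 51.8 RPKM, a ratio of 5.00, JUN 3.47 and 100.4 RPKM, a ratio of 4.502, and ATF3 4.14 and 45.7 RPKM, a ratio of 3.18. JUNB had 6.17 and 22.3 RPKM, a ratio of 1.70, and JUND 28.6 and 86.4 RPKM, a ratio of 1.56. FOSL1 had 0.580 and 2.20 RPKM, a ratio of 1.02, and FOSL2, with 2.56 and 3.67 RPKM and a ratio of 0.39, was the member not called. The sizes depend on the summing of transcripts that share reads. With each gene's highest transcript in place of the sum, the log2 ratio was 4.95 for FOS, 4.27 for JUN, 2.55 for FOSB and 2.42 for ATF3, so that JUN lay above FOSB. FOSL1, just inside the threshold with the sum, was then not called, at 0.39. With 1 library per condition these differences have no replicate check.

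The canonical transcripts are given next with their reads, their positions on GRCh38 and the ratio of their RPKM and its exact 95% interval, which covers counting error only. Each transcript was counted on its own by the authors, so isoforms share reads, and whether reads of overlapping or antisense genes were kept apart by strand is not given in the sources used here. Among the FOS proteins, FOS-201 (gene ENSG00000170345, chr14:75278826-75282230, +, 4 exons, 2104 nt), whose protein is the classical partner of JUN, had 0.107 RPKM from 3 reads in untreated and 31.6 RPKM from 749 reads in AS-treated cells, a ratio of 294 (100 to 1430). FOSB-201 (ENSG00000125740, chr19:45467995-45475179, +, 4 exons, 3775 nt) had 0.0598 RPKM from 3 reads and 5.61 RPKM from 239 reads, a ratio of 93.9 (31.7 to 458). Both transcripts were at the floor of 3 reads without AS, so the size of their ratios is known within wide limits only. FOSL1-201 (ENSG00000175592, chr11:65892049-65900573, −, 4 exons, 1702 nt), which codes for FRA-1, had 4 reads and 8 reads, at 0.177 and 0.417 RPKM, and its ratio of 2.36 had an interval from 0.631 to 10.7. FOSL2-201 (ENSG00000075426, chr2:28392448-28417317, +, 4 exons, 6713 nt), which codes for FRA-2, had 1.03 RPKM from 92 reads and 1.39 RPKM from 105 reads, a ratio of 1.34 (1.007 to 1.80). The mRNAs of the 4 FOS proteins thus ran from FOS, with the largest ratio of the family, to FOSL2, whose interval nearly reached 1. That interval also held 1.20, the median AS to untreated ratio of genes above 1 RPKM in both libraries by summed transcripts.

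Among the JUN proteins, JUN-201 (ENSG00000177606, chr1:58776845-58784048, −, 1 exon, 3257 nt) had 1.73 RPKM from 75 reads in untreated and 48.6 RPKM from 1786 reads in AS-treated cells, a ratio of 28.1 (22.3 to 35.8). JUNB-201 (ENSG00000171223, chr19:12791486-12793315, +, 1 exon, 1830 nt), a JUN protein that often restrains the activity of JUN, had 6.17 RPKM from 150 reads and 22.3 RPKM from 461 reads, a ratio of 3.62 (3.01 to 4.38). JUND-201 (ENSG00000130522, chr19:18279694-18281622, −, 1 exon, 1929 nt) had 19.0 RPKM from 486 reads and 54.8 RPKM from 1193 reads, a ratio of 2.89 (2.60 to 3.22). The intervals of JUNB and JUND overlapped, and both lay well below that of JUN. The canonical ATF3 transcript (4 exons, 1940 nt, gene ENSG00000162772 at chr1:212565334-212620777, +), which codes for a stress-induced repressor that pairs with JUN proteins, had 0.582 RPKM from 15 reads and 6.44 RPKM from 141 reads, a ratio of 11.1 (6.49 to 20.3).

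**Figure D1:**
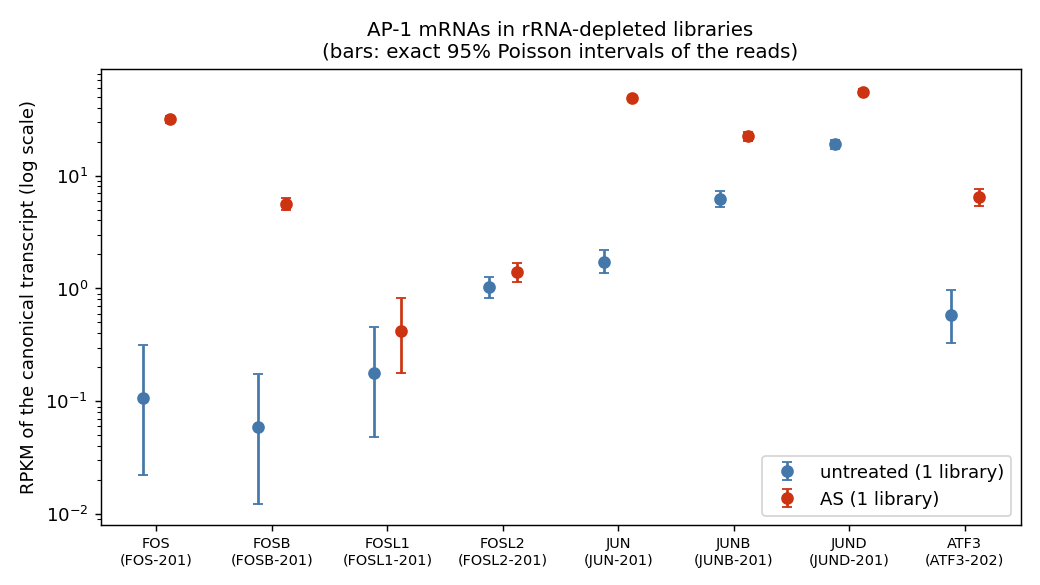
RPKM of the canonical transcript of each AP-1 gene (log axis) in the untreated and the AS-treated rRNA-depleted library, 1 library each, with exact 95% Poisson intervals of the reads as bars. FOS went from 0.107 to 31.6 RPKM and JUN from 1.73 to 48.6, whereas the intervals of FOSL1 and of FOSL2 overlapped between the libraries.

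In untreated cells the levels of the canonical transcripts ran from JUND over JUNB, JUN, FOSL2, ATF3, FOSL1 and FOS down to FOSB. The counting intervals of neighbours overlapped from FOSL2 downwards and did not overlap above it. Under AS the order was JUND, JUN, FOS, JUNB, ATF3, FOSB, FOSL2 and FOSL1, and of these neighbours only ATF3 and FOSB had overlapping intervals. JUND made up 65.8% of the family's summed RPKM of canonical transcripts in untreated and 32.0% in AS-treated cells, while FOS went from 0.372% to 18.4% and JUN from 6.01% to 28.4%. The sum itself went from 28.8 to 171 RPKM.

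Of the 46 transcripts, 45 were higher under AS and 1, FOS-210, was at 0 in both libraries. The other 9 FOS transcripts had at most 0.180 RPKM in untreated cells and between 17.8 and 35.4 RPKM under AS. The 12 FOSB transcripts had at most 0.130 RPKM and between 2.29 and 5.61 RPKM. Among these were FOSB-205 and FOSB-207, annotated as retaining an intron, at 0.0345 and 2.52 RPKM and at 0 and 3.35 RPKM. The other JUN transcript, annotated as a target of nonsense-mediated decay, went from 1.74 to 51.8 RPKM, and the shorter JUND transcript from 9.63 to 31.6 RPKM. The 10 ATF3 transcripts lay between 0.156 and 0.589 RPKM in untreated cells and between 0.920 and 7.48 RPKM under AS, so that the lowest AS value was above the highest untreated one. The transcripts of FOSL1 stayed below 1 RPKM in both libraries, the highest being 0.591 under AS, and the 4 FOSL2 transcripts lay between 0.399 and 1.43 RPKM under AS. Since the isoforms of a gene share reads, they do not count as separate observations. The count of 45 used no threshold, and the share of all transcripts that were higher under AS is not given here. The values of all transcripts summed to 1039720 in the untreated and 1216810 in the AS library. Genes above 1 RPKM in both libraries had a median AS to untreated ratio of 1.20.

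In the poly-A libraries from siRNA-treated cells, JUND and JUNB made up most of the family. In siCtrl, JUND had 130 TPM, JUNB 61.0, JUN 22.1, ATF3 5.77, FOSL2 5.23, FOS 2.71, FOSL1 1.72 and FOSB 0.206 TPM. JUNB and JUND together were 83.5% of the family's 229 TPM, and the 4 FOS proteins 4.31%. JUND, JUNB and JUN were also the 3 highest and FOSB the lowest by canonical transcript in the rRNA-depleted untreated library, whereas by summed transcripts ATF3 lay above JUN and FOSL1 was lowest there.

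In the AS lysate, 4 of the 8 genes were called higher than in siCtrl, against 1.28% of all genes tested, and 1 was called lower, against 19.6%. FOS had 2.71 TPM in siCtrl and 174 TPM in Total, a log2 ratio of TPM + 1 of 5.56. FOSB had 0.206 and 16.9 TPM, a ratio of 3.89, JUN 22.1 and 216 TPM, a ratio of 3.23, and ATF3 5.77 and 28.9 TPM, a ratio of 2.14. These were the same 4 genes that led in the rRNA-depleted libraries. JUNB with 61.0 and 108 TPM and JUND with 130 and 214 TPM had log2 ratios of 0.81 and 0.71, under the threshold but above 97.8% and 97.2% of genes tested. FOSL2 had 5.23 TPM in siCtrl and 0.746 TPM in Total, a log2 ratio of −1.84, and FOSL1 had 1.72 and 1.43 TPM, a ratio of −0.17. The median over the family was 1.48, against −0.41 over all genes tested. With Total rescaled to a median ratio of 1, JUNB and JUND were called as well, which made 6 higher and 1 lower, against 3.63% and 10.7% of all genes on that scale. The 2 libraries differ in AS, in siRNA and in lysis, and these cannot be told apart here.

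**Figure D2:**
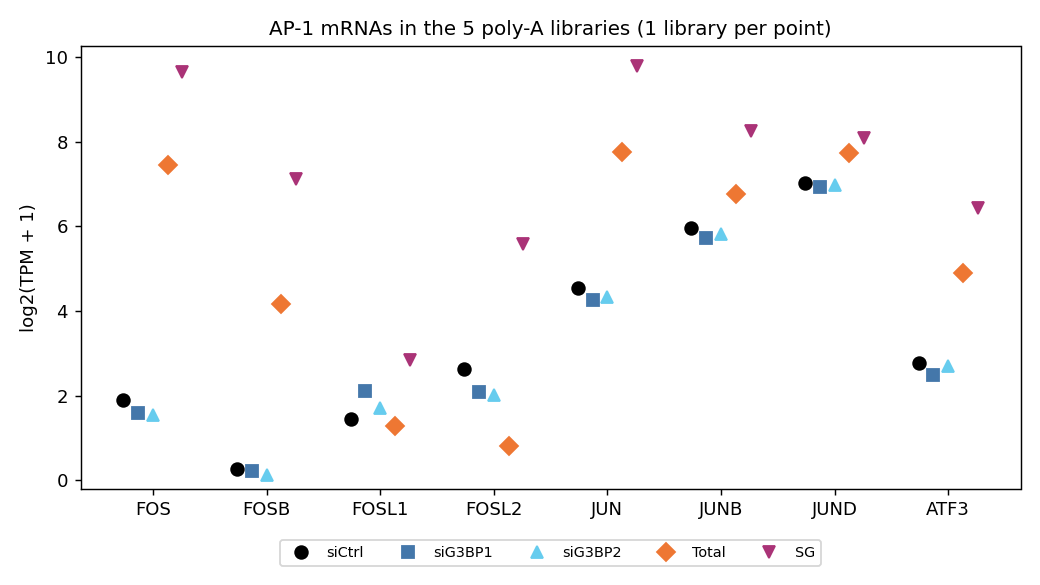
Levels of the 8 AP-1 mRNAs as log2(TPM + 1) in siCtrl, siG3BP1, siG3BP2, Total and SG, 1 library per point. The 3 siRNA libraries lie close together for each gene, Total stands above them for FOS, FOSB, JUN and ATF3, and FOSL2 is lowest in Total at 0.746 TPM and highest in SG at 46.9 TPM.

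In the SG cores, 7 of the 8 genes were SG-enriched, more than 2-fold over Total on TPM + 1 with more than 1 TPM in SG, but so were 62.9% of all 13560 genes tested. The median log2 ratio of the family was 1.79, against 1.51 over all genes tested, so most members lay near the middle of all genes. FOS went from 174 TPM in the lysate to 802 TPM in the cores, a log2 ratio of 2.20, FOSB from 16.9 to 137 TPM, a ratio of 2.95, and JUN from 216 to 880 TPM, a ratio of 2.02. FOSL1 with 1.43 and 6.16 TPM, ATF3 with 28.9 and 86.2 TPM and JUNB with 108 and 306 TPM had ratios of 1.56, 1.54 and 1.49. JUND, with 214 and 272 TPM, was the member not enriched, at 0.35, and 24.9% of genes tested lay below it. FOSL2 lay highest, with 0.746 TPM in Total against 46.9 TPM in the cores and a ratio of 4.78, above 96.7% of genes tested. With SG rescaled so that the median ratio of all genes was 1, FOSB and FOSL2 were enriched, as were 35.3% of all genes, JUND was depleted at −1.12, as were 25.6%, and the other 5 lay between 0.03 and 0.73.

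FOSL2 is also the member with the longest mRNA, 6713 nt, of which 4869 nt is 3′ UTR. Across the 8 genes the log2 ratio of SG to Total followed the length of the canonical transcript, with Spearman's rho of 0.81 and Pearson's r of 0.90 with log2 length, and the length of the 3′ UTR, with 0.81 and 0.88. With the coding length rho was −0.11 and r was 0.15. These correlations are across 8 genes within 1 pair of libraries, in which genes are not independent replicates, and JUND, at 1929 nt, lay below ATF3 and JUNB of about the same length.

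**Figure D3:**
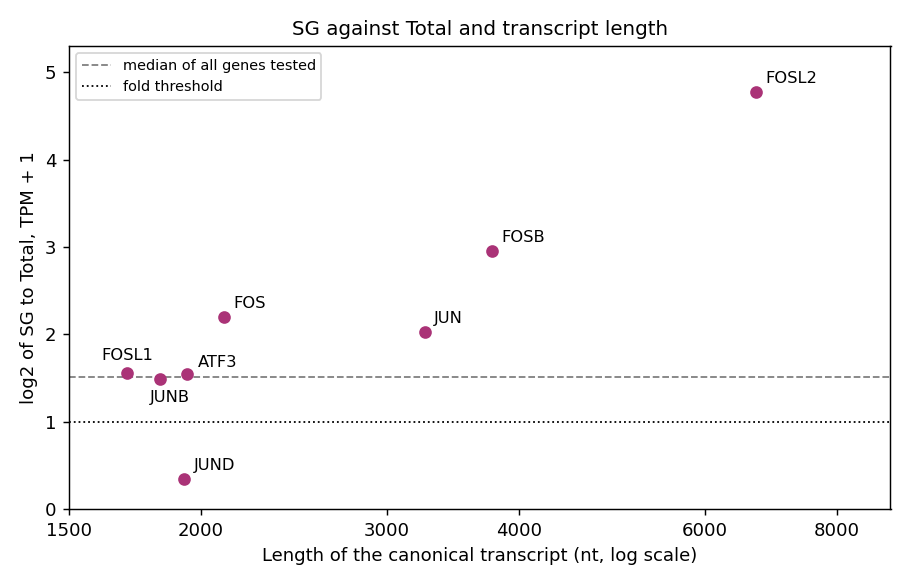
The log2 ratio of SG to Total (TPM + 1) of each AP-1 gene against the length of its canonical transcript in nt (log axis). The dashed line is the median of all genes tested, 1.51, the dotted line the fold threshold. FOSL2, the longest at 6713 nt, is highest at 4.78 and JUND is lowest at 0.35.

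The make-up of the family differed between siCtrl, Total and SG. Only Total and SG are fractions of AS-treated cells, and siCtrl differs from them in AS, siRNA and lysis. JUNB and JUND together were 83.5% of the family's TPM in siCtrl, 42.3% in Total and 22.8% in SG. FOS and JUN together were 10.9%, 51.4% and 66.3%. The FOS proteins as a group went from 4.31% to 25.4% and 39.1%, and the family's summed TPM from 229 to 760 and 2536. Genes above 1 TPM in both Total and SG had a median SG to Total ratio of 2.78. In SG the highest members were JUN and FOS, at 34.7% and 31.6%.

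**Figure D4:**
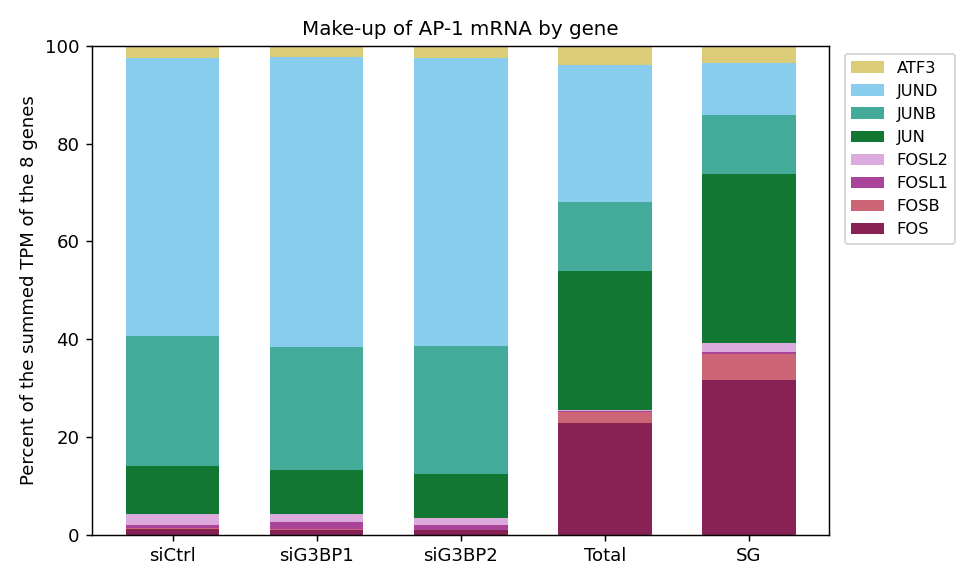
Share of each gene in the summed TPM of the 8 AP-1 genes in the 5 poly-A libraries, as stacked bars in percent. JUND and JUNB fill 83.5% of the bar in siCtrl and 22.8% in SG, where FOS and JUN fill 66.3%.

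After knockdown of G3BP1 or G3BP2, 0 of the 8 genes were called in either direction. G3BP1 itself was at 18.7 TPM in siCtrl and 5.996 TPM in siG3BP1, and G3BP2 at 38.1 TPM in siCtrl and 11.4 TPM in siG3BP2, so that 32.0% and 29.9% of the target mRNA was left. Over all genes tested, 3.1% were called with siG3BP1 and 4.11% with siG3BP2. Both knockdowns are compared with the same siCtrl library, so their ratios are not independent. FOSB, below 1 TPM in all 3 libraries, could not be called. The largest difference was that of FOSL1, 1.72 TPM in siCtrl, 3.34 TPM in siG3BP1 and 2.29 TPM in siG3BP2, with log2 ratios of 0.67 and 0.27. FOSL2 had 5.23, 3.22 and 3.03 TPM, with ratios of −0.56 and −0.63. FOS had 2.71, 2.01 and 1.91 TPM, ratios of −0.30 and −0.35, and JUN had 22.1, 18.2 and 19.2 TPM, ratios of −0.27 and −0.19. JUNB, JUND and ATF3 had ratios between −0.28 and −0.05. The family medians, −0.27 and −0.13, stood beside −0.08 and −0.12 over all genes tested.

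The eCLIP table holds a whole number per gene and library, written as log10 of that number + 1 and not adjusted for library size, and which processing steps that number includes is not given in the sources used here. The longest gene, introns included, had the highest values and the shortest genes the lowest. ATF3, spanning 55444 bp, had 2.32 to 2.98 over the 8 libraries, and JUNB and JUND, spanning 1830 and 1929 bp, had 0 to 1.34. The library numbers summed to between 4268911 and 26179736, and library 1 of each group was the larger one. The numbers given in brackets below are recovered from rounded logarithms and are approximate where they are large.

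FOS, JUN, JUNB and JUND had lower eCLIP values in AS-treated than in untreated cells. According to the paper, CLIP was done on the soluble fraction, and under stress much of both G3BP proteins lay in the insoluble one. The part of this in the values was not tested. Nor were the values set against the SMInput libraries here. For G3BP1, FOS had 1.93 and 1.83 in the untreated libraries (84 and 67 as numbers) and 1.11 and 0.90 in the AS libraries (12 and 7), a change of −0.875 ± 0.631 (SE) on the log10 scale. For G3BP2 it had 2.09 and 1.89 (122 and 77), then 1.72 and 0.70 (51 and 4), a change of −0.78 ± 0.429 (SE). For both proteins both AS libraries lay below both untreated ones, and among all genes fitted 0.678% changed further down than FOS for G3BP1 and 0.609% for G3BP2. With the libraries scaled to the same total these shares were 1.74% and 0.898%. JUNB had 1.00 and 1.11 for G3BP1 before AS (9 and 12), and 0.60 and 0 with AS (3 and 0). For G3BP2 it had 0.95 and 1.20 (8 and 15), then 0.48 and 0 (2 and 0). JUND had 1.11 and 1.34 (12 and 21), then 1.04 and 0.70 (10 and 4) for G3BP1, and 1.18 and 0.95 (14 and 8), then 0 and 0.30 (0 and 1) for G3BP2. JUNB and JUND thus rest on few counts, at most 21 in a library.

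JUN had 1.76 and 1.61 (57 and 40) without AS and 1.18 and 0.85 (14 and 6) with AS for G3BP1. For G3BP2 it had 1.67 and 1.11 (46 and 12), then 1.18 and 0.48 (14 and 2), so that the groups overlapped as deposited. Both AS libraries lay below both untreated ones for FOS, JUN, JUNB and JUND with G3BP1, where 2.27% of all genes did so. With G3BP2 this held for FOS, FOSB, JUNB and JUND, where 3.35% did so, and for both proteins at once for FOS, JUNB and JUND, where 0.916% did so. Scaled to the library sums, as CPM (counts brought to an equal library sum), it held for both proteins for FOS, JUN and JUNB, where 4.37% of all genes did so, and 3.19% of the 5204 genes whose untreated mean was between 1 and 2. FOS had 3.50 and 9.87 CPM in the untreated and 0.529 and 1.64 in the AS libraries of G3BP1, and 4.66 and 7.21, then 1.96 and 0.522 CPM, for G3BP2. JUND overlapped for G3BP1 on that scale.

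With limma across all genes, however, none of the 8 members passed the threshold, the adjusted p being 1 for each member and both proteins. Over all genes the call rate was 0.0% for G3BP1, with 16 genes higher and 30 lower at an unadjusted p below 0.05, and 0.0105% for G3BP2, with 70 higher and 89 lower. With the libraries scaled to the same total, the change of FOS was −0.77 ± 0.263 (SE) for G3BP1 and −0.73 ± 0.221 (SE) for G3BP2, and no member passed either. With 2 libraries per group and unequal depth, missing the threshold does not show that values were alike. Over all alternatives run, the adjusted p of a member was never below 0.786 for G3BP1 and 0.411 for G3BP2. The interaction of treatment and protein gave an adjusted p of 1 in limma for each member (0.893 to 1 over the alternatives). Its largest value was that of JUND, whose change was −0.355 for G3BP1 and −0.915 for G3BP2, a difference of −0.56 ± 0.671 (SE).

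The other 4 members changed less. FOSB had 2.58 and 1.93 without AS and 2.41 and 2.06 with AS for G3BP1, then 2.46 and 2.35, and 2.24 and 2.33 for G3BP2. FOSL1 changed by −0.025 and −0.005 and FOSL2 by −0.115 and −0.01 for G3BP1 and G3BP2. ATF3 changed by −0.23 and −0.11. All these changes were small beside their SE of at least 0.423, and the median change of all genes fitted was −0.115 for G3BP1 and −0.075 for G3BP2. FOS and JUN, 2 of the 4 members with the lower eCLIP values, were thus among the mRNAs with the highest RNA-seq ratios under AS, while FOSB and ATF3, also with high RNA-seq ratios, had eCLIP changes of −0.23 to −0.02.

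**Figure D5:**
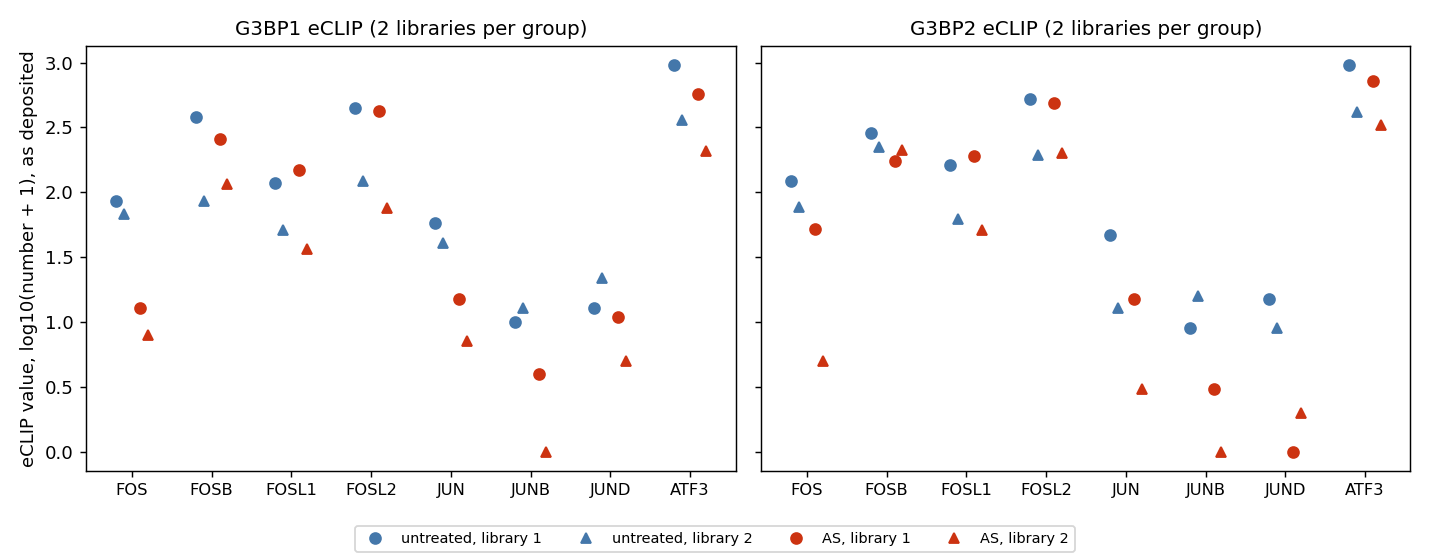
eCLIP values of the 8 AP-1 genes, as deposited on the log10 scale, for G3BP1 (left) and G3BP2 (right), with 1 point per library, circles for library 1 and triangles for library 2 of each group. The AS points of FOS, JUNB and JUND lie below the untreated points for both proteins, and the ranges of the AS and the untreated points overlap for FOSL1, FOSL2 and ATF3.

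Divided by the span of the gene, the value of FOSB was 52.7 and 11.7 per kb in the untreated and 35.6 and 15.9 per kb in the AS libraries of G3BP1, 2.33 to 9.55 times the median of all genes over the 8 libraries. FOS had 24.7 and 19.7 per kb without AS and 3.52 and 2.06 with AS for G3BP1, where the medians of all genes were 9.74 and 2.701, then 9.12 and 1.66. FOSL2 lay at 1.76 to 2.53 times the median in every library. The median of the 8 members, averaged over the 2 libraries of a group, was 10.98 per kb for G3BP1 and 12.8 for G3BP2 without AS, and 5.16 and 8.76 with AS.

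Other genes of the pathway were taken from lists likewise chosen with earlier results known. Of all genes tested, 4.08% were called higher under AS in the rRNA-depleted libraries, the share to set beside each list's count. Of 23 kinases and factors upstream of AP-1 that were tested in the rRNA-depleted libraries, 0 were called, with a median log2 ratio of 0.19 against 0.25 over all genes tested. They ran from MAP2K1 (MEK1) at 8.07 and 16.8 RPKM down to MAPK11 (p38β) at 14.9 and 10.6 RPKM. The JNK genes, whose kinases phosphorylate JUN, had 139 and 153 RPKM (MAPK8), 42.0 and 42.5 RPKM (MAPK9) and 282 and 439 RPKM (MAPK10). Such sums count reads shared by isoforms more than once, so RPKM here and below do not rank genes by abundance. In the poly-A library siCtrl the order differed, with 10.3 TPM for MAPK8, 9.18 for MAPK9 and 5.00 for MAPK10. Of 11 other bZIP partners tested, 2 were called higher, with a list median of 0.43. These were MAFF, a small MAF protein, at 3.12 and 12.7 RPKM, and ATF6B, listed at 0 and at 3.44 RPKM, while MAFG was lowest at 11.4 and 11.1 RPKM. In the poly-A libraries ATF6B had 8.80 TPM in siCtrl and 3.13 TPM in Total, so its 0 without AS, and the call, are uncertain. ATF4, which drives the integrated stress response, had 419 and 635 RPKM.

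Of 11 AP-1 target genes tested, 1 was called higher, HBEGF, a growth factor of the EGF family, at 1.00 and 3.52 RPKM. The list median was 0.51, and CCND1 (cyclin D1) was lowest at 526 and 440 RPKM. IL6 and CXCL8 were at 0 in both libraries. Of 12 factors that bind AU-rich elements or shorten poly-A tails, 3 were called higher, with a median of 0.31. BTG2 had 1.78 and 12.4 RPKM, ZFP36 (tristetraprolin, which binds AU-rich elements and promotes decay) 3.03 and 13.7 RPKM, and PARN, a deadenylase, 11.5 and 28.7 RPKM. HNRNPD was lowest at 551 and 505 RPKM.

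In SG against Total, 21 of 24 upstream genes were called higher, with a median log2 ratio of 2.71 against 1.51 over all genes tested. Of all genes tested, 62.9% were called higher there and 9.45% lower. MAP3K1 had 5.39 and 399 TPM and MAP2K2 222 and 78.2 TPM, the one called lower. Of the bZIP partners 11 of 13, of the target genes 6 of 10 and of the AU-rich factors 9 of 11 were called higher, with medians of 1.74, 1.15 and 1.89. MAFG was highest among the partners at 6.09 and 115 TPM and BATF3 lowest at 1.94 and 2.41. VEGFA was highest among the targets at 18.4 and 243 TPM and TIMP1 lowest at 89.7 and 22.6 TPM, the 1 target called lower. CNOT1 with 10.6 and 346 TPM and HNRNPD with 373 and 201 TPM were at the ends of the AU-rich list.

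In Total against siCtrl, upstream genes were called lower in 8 of 23 cases and higher in 0, with a median of −0.76 against −0.41. Of all genes tested, 19.6% were called lower there and 1.28% higher. ELK4, at 1.79 and 2.11 TPM, was highest and MAPK11, at 27.5 and 7.31 TPM, lowest. The partners had 1 call higher (BATF3, 0.156 and 1.94 TPM) and 3 lower of 12, with a median of −0.67 and MAFG lowest at 26.0 and 6.09 TPM. The targets had 0 higher and 2 lower of 9, with a median of −0.22, CD44 being highest at 2.56 and 2.47 TPM and CCND1 lowest at 324 and 96.4 TPM. The AU-rich factors had 1 higher (HNRNPD, 170 and 373 TPM) and 2 lower of 11, with a median of −0.38 and ZFP36L2 lowest at 37.9 and 10.2 TPM.

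After the knockdowns, PARN was the single call in these lists, higher with either siRNA, at 0.326 TPM in siCtrl, 5.49 TPM in siG3BP1 and 5.86 TPM in siG3BP2. Both calls rest on the same siCtrl value, which is below 1 TPM. PARN was also low in Total and SG, at 0.273 and 0.705 TPM, but had 11.5 and 28.7 RPKM in the rRNA-depleted libraries. Its low value in siCtrl, and the calls, are therefore uncertain. Of all genes tested, 3.1% were called in either direction with siG3BP1 and 4.11% with siG3BP2. With siG3BP1 the medians were −0.18 for the 11 partners tested, −0.11 for 23 upstream genes, −0.05 for 10 targets and 0.06 for 12 AU-rich factors, against −0.08 over all genes tested. The log2 ratios ran from −0.36 (MAFK) to 0.45 (ATF6B) among partners, from −0.37 (MAP3K1) to 0.24 (MAPK10) upstream, from −0.41 (TGFB1) to 0.69 (CCL2) among targets, and upwards from −0.19 (ZFP36L2) among AU-rich factors. With siG3BP2 the medians were −0.26, −0.17, −0.24 and −0.07, against −0.12 over all genes tested. There the ratios ran from −0.53 (ATF7) to −0.03 (ATF2), from −0.98 (MAPK10) to 0.97 (RPS6KA1), from −0.47 (CD44) to 0.95 (SPP1), and upwards from −0.38 (ZFP36L1).

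The genes whose levels across the 5 poly-A libraries were most like those of a member were named by the distance of their log2(TPM + 1), centred on each gene's mean, among 13661 genes. For FOS they were EGR1 (distance 1.02), another immediate-early factor, FOSB (1.68) and HSPA6 (2.39), and for FOSB they were JUN (1.32), FOS (1.68) and HSPA6 (1.69). For JUN they were HSPA6 (1.14), FOSB (1.32) and HSPA1A (1.39), of which the HSPA genes code for heat shock chaperones. ATF3 had HSPA1A (0.167), DUSP1 (0.298), a phosphatase of MAP kinases, and HSPA1B (0.559). JUNB had DUSP5 (0.162), CHAC1 (0.186) and ZNF442 (0.201), and JUND had OXT (0.125), SLC39A8 (0.144) and SEPTIN7 (0.159). OXT, at 0.00208 TPM in siCtrl and 1.23 in SG, and ZNF442, at 0.165 and 4.98 TPM, were near the floor. The pseudocount shapes their distances. FOSL1 had ANKRD13A (0.115), PIWIL1 (0.143) and SLC22A5 (0.151), and FOSL2 had SLC7A1 (0.0909), IGSF3 (0.151) and MTMR4 (0.164). FOS, FOSB and JUN had other members among their nearest genes, whereas JUND ranked 1715th by distance from JUNB. Distances of genes with large differences are larger throughout, and the HSPA6, HSPA1A and HSPA1B mRNAs are close in sequence, so reads between them are uncertain.

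The label of the line was checked on its markers. Of 10 neuroblastoma markers, 9 were above 1 TPM in all 5 poly-A libraries, and TH was at most 0.389 TPM. The 6 markers of other cells summed to between 10.2 and 70.3 TPM, highest in SG, where CD68 had 28.7 and COL1A1 40.97 TPM against 0.553 and 9.42 TPM in Total, and PTPRC, PECAM1 and ALB were at 0 outside SG. In the rRNA-depleted libraries 1 of the 3 markers tested was called, CD68, with 2.45 RPKM without and 8.33 RPKM with AS, while COL1A1 had 5.58 and 5.42 RPKM. The part of such RNA in the SG and AS values was not tested. The untreated rRNA-depleted library held 13291958 reads by its values and the AS library 11281587, and the depth of the poly-A libraries is unknown, since TPM keeps none.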

How the data were processed

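eCLIP of G3BP1 and G3BP2 and RNA-seq were analysed in SH-SY5Y cells. Of the 19 samples, the SMInput libraries were not analysed here. For RNA-seq the authors aligned reads to GRCh38.p13 with HISAT2 2.1.0 (version from the submitters' processing notes) and used StringTie with GENCODE. They deposited TPM for protein-coding genes. The rRNA-depleted values, deposited per transcript under a header of TPM, are RPKM: value times transcript length is a whole multiple of 1 step per library, within 0.01 reads, for 100% and 99.9993% of values. For eCLIP the authors trimmed reads, aligned them with STAR and called peaks, and the deposited numbers are log10 values.

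Members were matched by Ensembl gene ID, and transcripts by ID (91.1% of all found). GENCODE coordinates came from a release that may differ from the authors'. The members and all gene lists were chosen with earlier results of these data known. All members were named. From the other gene lists those with the highest and the lowest ratio among genes tested were named, for marker lists levels were given, and the 3 nearest genes of each member were named. Non-canonical transcripts were summarised by their range. MAPK8, MAPK9, MAPK10, ATF4, IL6 and CXCL8 were named, beside genes called in counts of 3 or fewer, after their values were seen. The count of genes whose eCLIP libraries did not overlap in CPM was added after seeing the data. Ratios used a pseudocount of 1, thresholds of 2 and 0.5 and a minimum of 1 in the higher library. The eCLIP values of genes detected in 2 or more of the libraries fitted were tested with limma 3.58.1 (R 4.3.3; trended variance, Benjamini-Hochberg adjustment, threshold 0.05). Both procedures were tested on simulated data. Python 3.11.15, pandas 2.3.3, scipy 1.17.1 and matplotlib 3.10.9 were used. Intervals are exact 95% Poisson intervals. Alternatives covered pseudocounts, thresholds, filters, scaling, isoforms, blocking and left-out libraries.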

Additional observations from a re-analysis of the deposited data

How the results depend on the processing

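Settings changed 1 choice at a time, except for scaling together with the replicate block. With fold thresholds of 4 and 0.25, 4 members (FOS, FOSB, JUN and ATF3) were called higher under AS, against 0.286% of all genes, and 4 in SG, against 39.3%. With SG rescaled to a median ratio of 1, 2 members were called higher and 1 lower, against 35.3% and 25.6% of all genes. With thresholds of 1.5 and its inverse, 1 member (FOSL1) was called higher after siG3BP1, against 3.71% of all genes, and 1 (FOSL2) lower after siG3BP2, against 9.70%. FOSL1 was not called under AS with that library rescaled (0.84) or with a minimum of 5. Other pseudocounts and filters left these counts within 1.5 times.

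For G3BP2 eCLIP, the 2 genes higher and 0 lower became 0 and 0 without a filter on genes at 0, 5 and 6 without the intensity trend, 0 higher when scaled to the same total with or without the replicate block, and 0 to 1 higher and 0 to 12 lower when 1 library was left out, 12 without AS G3BP2 library 1 and 5 without AS G3BP2 library 2. For the interaction, leaving out the filter gave 4 higher and 2 lower, and leaving out 1 library 0 to 1 lower (1 without AS G3BP1 library 2). No label says that same-numbered libraries belong together, and 2 pairs per protein are too few to establish it: same-numbered libraries deviated together with r = 0.194 for G3BP1 and 0.136 for G3BP2 over 16476 genes, and with the replicate block 0 genes were called for either protein. The adjusted p of FOS was then 0.786 for G3BP1 and 0.896 for G3BP2 in limma, and no member's call changed. Per kb of the longest transcript in place of the span, the members' medians were 36.7 and 20.9 (G3BP1 untreated, AS) and 49.7 and 25.3 (G3BP2), and with 1 library left out they lay at 6.54 to 15.4 and 2.54 to 7.77, and at 7.65 to 18.0 and 3.52 to 14.0.

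The eCLIP changes of FOS, JUN, JUNB and JUND kept their sign for both proteins under every alternative run. Scaling to the same total, with or without the block, reversed those of FOSB (0.0938) and FOSL1 (0.0860) for G3BP1, of FOSL1 (0.0651) and FOSL2 (0.0633) for G3BP2, and the interaction of FOSL1 (−0.0209) and JUNB (0.0126). With 1 library left out the sign turned for FOSB (−0.35 to 0.31), FOSL1 (−0.33 to 0.28) and FOSL2 (−0.49 to 0.26) for G3BP1 and for FOSL1 (−0.29 to 0.28), FOSL2 (−0.23 to 0.21) and ATF3 (−0.29 to 0.07) for G3BP2. It also turned for the interactions of FOS (−0.42 to 0.61), FOSB (−0.43 to 0.23), FOSL1 (−0.29 to 0.33), FOSL2 (−0.27 to 0.48), JUN (−0.24 to 0.46), JUNB (−0.38 to 0.22) and ATF3 (−0.10 to 0.34). In the fits with 1 library left out, on values not adjusted for library size, the median change of all genes also turned sign. That median ran from −0.47 to 0.255 for G3BP1, from −0.33 to 0.195 for G3BP2 and from −0.325 to 0.39 for the interaction. The cause of the members' turns was not tested. With 1 library per condition RNA-seq gives no replicate check, and 3 reads of FOS and of FOSB in untreated cells limit their ratios.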

Other observations

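Across all genes with values in both kinds of library, those called higher under AS in the rRNA-depleted libraries, a class that holds 7 of the 8 AP-1 genes, had a median eCLIP change under AS of −0.04 on the log10 scale for G3BP1 (444 genes) and −0.02 for G3BP2 (445 genes), with libraries scaled to the same total. In 9.91% and 5.17% of them the value fell by more than 0.5. Among genes not called, this was so in 3.32% of 12034 and 1.77% of 12057. Among genes called lower under AS, it was so in 24.1% of 58 and 11.5% of 61, so both classes held a larger share of such genes than the uncalled one. Rises of that size are not given here, and whether the classes differ in eCLIP value, and so in counting noise, was not tested. Genes within a class share libraries and no test was made of these shares.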
